A study of Mus musculus with 10 samples.

Results

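Marker genes of fat cells were followed here through RNA sequencing of gastrocnemius, the main muscle of the calf, from C57BL/6J male mice with diet-induced obesity (DIO). The 10 genes are Adipoq, Plin1, Cfd, Retn, Lep, Fabp4, Cidec, Car3, Scd1 and Cebpa, chosen by symbol as known adipocyte markers, out of 21098 genes in the table, to judge how much fat RNA each muscle library held. Wild-type mice received a high fat diet (D12492i) from 9 weeks of age, and after 9 weeks on it they were injected under the skin once a week for 14 weeks. The design text gives an age of 30 weeks, which these times exceed, so the age at dissection is uncertain. The 5 ASO libraries come from mice given 10 mg/kg of RES-010, an antisense oligonucleotide with locked nucleic acid (LNA) bases that binds the microRNA miR-22. The 5 CTRL libraries come from mice given the same volume of 0.9% saline, so the diet is shared by both groups; body weights were not analysed here. How fat around the muscle was trimmed at dissection is not given in the sources used here. Nothing in the labels says which libraries share a cage, a day or a batch, so p-values measure the spread between these libraries, and each group stands for one strain and sex.

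Counts per library, summed over all genes, ranged from 2239186 to 2632560 in ASO and from 1606909 to 2116720 in CTRL, and every ASO library was deeper than every CTRL library. Levels are given as CPM, counts brought to a common library size (1e6 counts) after scaling by TMM, a method that sets the bulk of genes equal between libraries. At these depths 3 counts, the floor used here, are worth between 1.14 and 1.87 CPM, and counting intervals cover counting error only. The tissue label held against its defining genes: Acta1, the actin of the skeletal muscle thin filament, lay between 25349 and 68523 CPM and Ckm, muscle creatine kinase, between 13121 and 48397 CPM over the 10 libraries. CTRL replicate 3 stood apart from the other libraries with the lowest value of both genes, and results that rest on it are given with and without it.

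White adipocytes store triglyceride in a single large droplet and release hormones, or adipokines, into the blood. In muscle they lie between the fibers and around the muscle belly, and they are more frequent in obesity. Perilipin 1 (Plin1) and Cidec coat the droplet, Fabp4 carries fatty acids in the cytosol, Scd1 desaturates them, and adiponectin (Adipoq), leptin (Lep), resistin (Retn) and adipsin (Cfd) are secreted. Cebpa is a transcription factor that drives adipocyte differentiation, and Car3 is a carbonic anhydrase that is abundant both in adipocytes and in slow muscle fibers. Fabp4 is also expressed by capillary endothelium and some macrophages, and Scd1 by many lipogenic cells, so these 3 genes mark fat less cleanly than the rest.

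The ASO is directed at miR-22-3p, whose seed (bases 2 to 8, in capitals) pairs with messenger RNA. The mature sequence, from RefSeq (GRCm38.p6, chr11:75463772-75463793, plus strand), and the only stretch with the 7-base seed match in an annotated 3′UTR of the 10 genes (match in capitals, GRCm39, chr7:79371355-79371383, minus strand, in the 3′UTR of Plin1) are shown because the ASO acts on this microRNA.
miR-22-3p: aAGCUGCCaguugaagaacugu
Plin1 3′UTR: gccagccccgcGGCAGCTtgcgcagcgtg
The complement of the seed, GGCAGCT, was found in the longest annotated 3′UTR of 1 of 10 marker genes and of 4996 of 21107 genes (23.7%). The Plin1 stretch begins 1434 bases after the stop codon and lies outside every segment on which Plin1 was counted. A match is a description of the letters, not a shown site.

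What could be measured depended on the segments that were counted, each at most the last 500 bp of an annotated 3′UTR. Adipoq (chr16:22976345-22976778), Car3 (chr3:14937084-14937583), Fabp4 (chr3:10269148-10269579), Lep (chr6:29073377-29073876) and Scd1 (chr19:44382894-44383393) each had a single segment in the 3′UTR, on GRCm39. Retn had 97.8% of its counts on chr8:3709611-3710110 and Plin1 88.1% on chr7:79369966-79370465. Cidec had 93.8% of its counts on a segment of 5 bp, chr6:113402518-113402522, which lies 923 bp upstream of its most distal one, and its pair of 500-bp segments that overlap almost entirely held 0 and 74 counts. Cebpa was listed at 0 in all 10 libraries: both of its segments have the same coordinates (chr7:34820854-34821353), and a read that falls on 2 segments is not counted under the stated settings, so its 0 is no measurement. Cfd, adipsin, had segments of 69 and 21 bp and 3 counts over the 10 libraries, in ASO replicate 2, CTRL replicate 3 and CTRL replicate 4. Of the 10 genes, 8 passed the filter on low counts, and Cfd and Cebpa did not.

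Adiponectin is a hormone made almost only by adipocytes, and its counts differed between libraries by more than those of most genes. In CTRL, Adipoq lay at 2.83, 241, 1612, 322 and 149 CPM in replicates 1 to 5. In ASO it lay at 451, 233, 308, 180 and 18.9 CPM. The highest library, CTRL replicate 3, was 570-fold above the lowest, CTRL replicate 1 (95% exact interval for counting 261 to 1554), and both belong to the same group. CTRL replicate 1 held 6 Adipoq counts (exact Poisson interval 2.20 to 13.1) in 2063645. ASO replicate 5 held 40 counts, the other 7 libraries lay between 149 and 451 CPM, and the groups overlapped. In bulk tissue, fewer adipocytes and less of this RNA per adipocyte cannot be told apart.

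**Figure D1:**
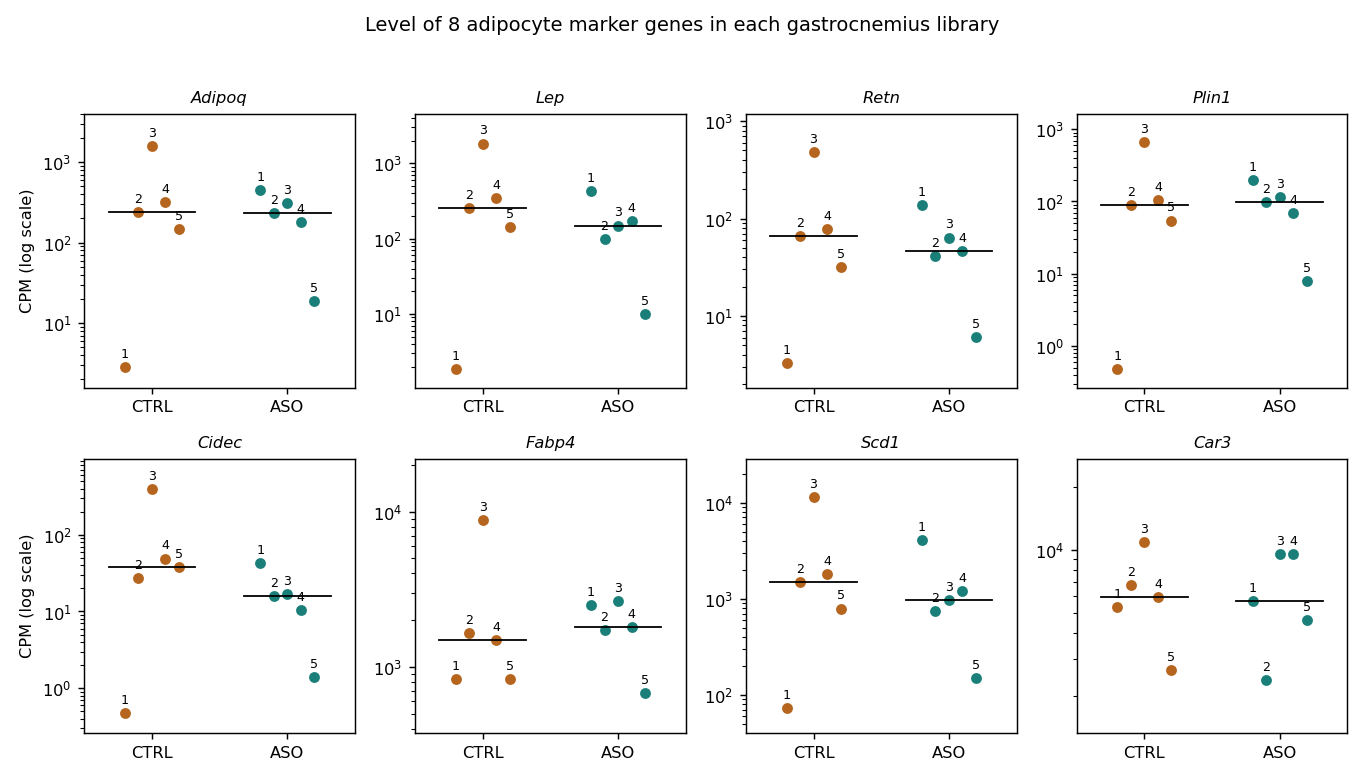
Level (CPM, log scale) of the 8 tested marker genes, 1 point per library with its replicate number, and the group median as a line. CTRL replicate 3 is the highest library for all 8 genes, and CTRL replicate 1 and ASO replicate 5 are the lowest pair for Adipoq, Lep, Retn, Plin1, Cidec and Scd1.

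The other hormones spread the same way. Leptin, which signals fat stores to the brain, lay at 1.89, 252.3, 1829, 343 and 142 CPM in CTRL and at 435, 99.4, 149, 171 and 9.90 CPM in ASO, replicates 1 to 5. Lep was thus highest in CTRL replicate 3 and lowest in CTRL replicate 1, which held 4 counts, and the groups overlapped. Resistin, a small adipokine of mouse fat, lay at 3.30, 66.7, 478, 78.5 and 31.5 CPM in CTRL and at 139, 41.6, 63.9, 46.3 and 6.13 CPM in ASO. Within ASO, replicate 1 had the highest level of all 3 hormones and replicate 5 the lowest. The span from lowest to highest library was 970-fold for Lep and 145-fold for Retn (counting intervals 378 to 3561 and 70.0 to 361).

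The 2 droplet proteins followed. Perilipin 1, which guards the droplet against lipases, lay at 0.47, 90.5, 663, 106 and 54.5 CPM in CTRL and at 200, 97.7, 117, 70.1 and 8.02 CPM in ASO. The lowest value rests on 1 count in CTRL replicate 1, so the ratio of 1405 between highest and lowest library has a counting interval from 251.7 to 55534. Cidec, which helps small droplets merge into large ones, lay at 0.47, 27.5, 391, 49.0 and 38.2 CPM in CTRL and at 42.5, 15.7, 16.9, 10.4 and 1.41 CPM in ASO. Here too CTRL replicate 1 held 1 count, and the ratio of highest to lowest library, 830, has an interval from 149 to 32815. For Cidec 4 of 5 ASO libraries lay below the CTRL median of 38.2 CPM, and for Plin1 3 of 5 ASO libraries lay above the CTRL median of 90.5 CPM.

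Scd1, the desaturase that makes oleate from stearate, kept the same order of extremes with more counts behind it. It lay at 72.6, 1509, 11436, 1795 and 792 CPM in CTRL and at 4055, 753, 967, 1197 and 151 CPM in ASO. Its lowest library held 154 counts, and the highest was 157-fold above it (interval 134 to 186). ASO replicate 1 stood above the other ASO libraries, with 4055 CPM against at most 1197.

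Fabp4 and Car3 did not fall away in the libraries that were nearly empty of Adipoq. Fabp4 lay at 837, 1653, 8770.0, 1484 and 836 CPM in CTRL and at 2491, 1733, 2665, 1818 and 676 CPM in ASO, a span of 13.0-fold. CTRL replicate 1, with 6 counts of Adipoq, held 1775 counts of Fabp4 and lay level with CTRL replicate 5. Car3 lay at 5294, 6809, 10890, 5952 and 2669 CPM in CTRL and at 5672, 2392, 9565, 9579 and 4610 CPM in ASO. Its span was 4.55-fold, its lowest library was ASO replicate 2, and CTRL replicate 1 lay in the middle of the range. Measured as the SD of log2(CPM + 1) over the 10 libraries, Lep (2.66), Adipoq (2.45), Plin1 (2.44), Cidec (2.28), Scd1 (2.09) and Retn (1.95) ranked 6, 10, 12, 15, 21 and 33 among 7813 tested genes. Fabp4 (1.07) ranked 437 and Car3 (0.74) ranked 1144, where the median gene had 0.43.

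Of all counts of a library, the 10 genes together took 0.638%, 1.08%, 4.10%, 1.07% and 0.494% in CTRL replicates 1 to 5. In ASO they took 1.25%, 0.522%, 1.24%, 1.33% and 0.473%. Group means were 1.48% ± 1.49 (SD, n = 5) in CTRL and 0.962% ± 0.426 (SD, n = 5) in ASO, and the ranges overlapped. Without CTRL replicate 3 the CTRL mean was 0.820%. CTRL replicate 3 stood above the other 9 libraries, with an exact Clopper-Pearson interval of 4.07% to 4.12%. Without Fabp4, Car3 and Scd1 the shares became 0.0009%, 0.0687%, 0.565%, 0.0948% and 0.0436% in CTRL, and 0.117%, 0.0475%, 0.0588%, 0.0484% and 0.0038% in ASO. The order of the libraries changed with that step: by all 10 genes CTRL replicate 5 and ASO replicates 2 and 5 had the smallest shares, whereas without those 3 genes CTRL replicate 1 and ASO replicate 5 stood far below the rest. Car3 made up 85.2% of the marker counts in CTRL replicate 1 and 84.1% in ASO replicate 5, but 30.2% in CTRL replicate 3.

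**Figure D2:**
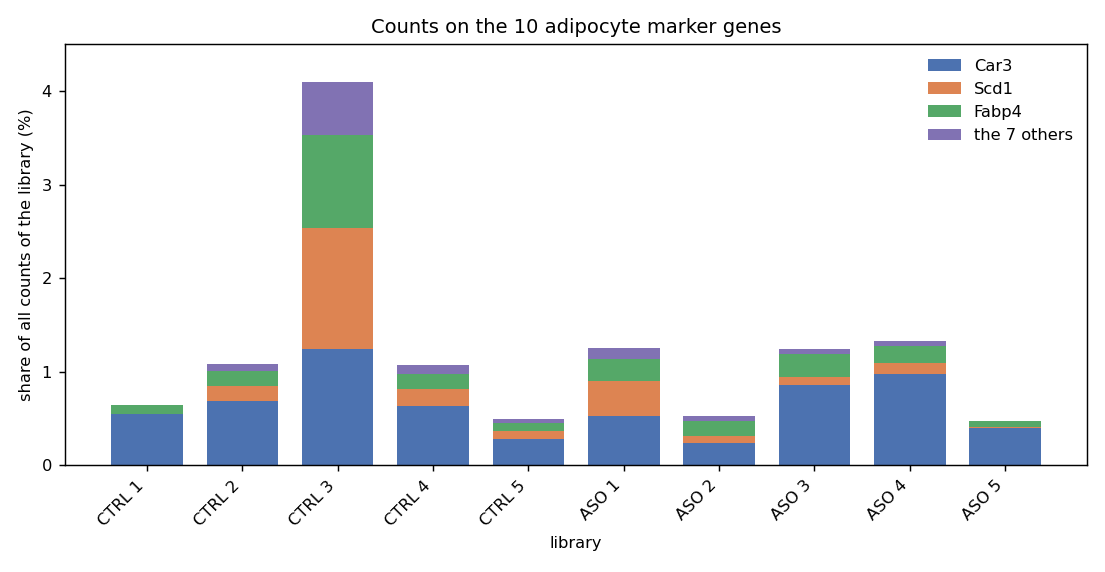
Share of each library's counts (percent) on the 10 marker genes, stacked as Car3, Scd1, Fabp4 and the 7 others, for 5 CTRL and 5 ASO libraries. CTRL replicate 3 reaches 4.10% and no other library passes 1.33%; in CTRL replicate 1 and ASO replicate 5 nearly all of the bar is Car3 and Fabp4.

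Next, the groups were compared to ask whether the ASO went with more or less of these transcripts. The test was edgeR's quasi-likelihood test, with p-values adjusted by Benjamini-Hochberg over all tested genes. By it, 0 of the 8 tested marker genes passed an adjusted p of 0.05 in either direction, where 29.2% of all 7813 tested genes did (920 higher and 1363 lower in ASO). At an unadjusted p under 0.05 there was 1, Cidec, and DESeq2 and limma-voom also called none. None of the 8 had groups without overlap, against 21.4% of all tested genes. Of the 8 log2 fold changes 7 were below 0, with a median of -1.05 beside -0.03 for all tested genes.

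The hormones had log2 fold changes, ASO over CTRL, of -0.97 (SE 1.00) for Adipoq, -1.57 (SE 1.09) for Lep and -1.15 (SE 0.93) for Retn, with adjusted p of 0.49, 0.30 and 0.38 in edgeR's test. Mean levels were 238 ± 159 CPM in ASO and 465 ± 652 CPM in CTRL for Adipoq (SD, n = 5 each), and the group medians were 233 and 241 CPM. For Plin1 the log2 fold change was -0.89 (SE 0.99, adjusted p 0.53, edgeR), for Scd1 -1.13 (SE 1.02, adjusted p 0.43) and for Fabp4 -0.53 (SE 0.62, adjusted p 0.55). Car3 was at 0.01 (SE 0.40, edgeR adjusted p 0.99), with 6364 ± 3159 CPM in ASO and 6323 ± 2985 CPM in CTRL. Cidec had the lowest ratio, -2.55 (SE 1.04, edgeR adjusted p 0.083), with 17.4 ± 15.3 CPM in ASO and 101 ± 163 CPM in CTRL. Two-sided exact permutation tests of the mean of log2(CPM + 1) gave p between 0.37 for Cidec and 0.97 for Fabp4 and Car3, where 5 against 5 libraries can reach 0.0079. On that scale the mean difference, ASO minus CTRL, was above 0 for Adipoq (0.14) and Plin1 (0.30). It was -0.02 for Fabp4 and Car3, -0.29 for Retn, -0.35 for Scd1, -0.48 for Lep and -1.30 for Cidec.

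The direction of most of the edgeR log2 fold changes hung on 1 library, and for Adipoq and Plin1 it also differed from that of the mean of log2(CPM + 1). Without CTRL replicate 3 the log2 fold changes became 0.41 for Adipoq, 0.65 for Plin1, 0.40 for Retn, 0.45 for Scd1, 0.64 for Fabp4 and 0.29 for Car3, and their median over the 8 genes turned to 0.41 beside 0.01 for all tested genes. Lep moved to -0.10 and Cidec to -0.72. Adjusted p in edgeR without that library lay between 0.20 for Fabp4 and 0.96 for Lep. CTRL replicate 1 was the lowest library for Adipoq, Plin1, Retn, Lep, Cidec and Scd1. Without it Cidec passed the threshold with a log2 fold change of -2.87 (edgeR adjusted p 0.027), and the other 7 genes did not pass. Without CTRL replicates 1 and 3 and ASO replicate 5 together, a choice made after seeing the data, no marker gene passed, and Cidec lay at -0.84 (SE 0.42, edgeR adjusted p 0.19).

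**Figure D3:**
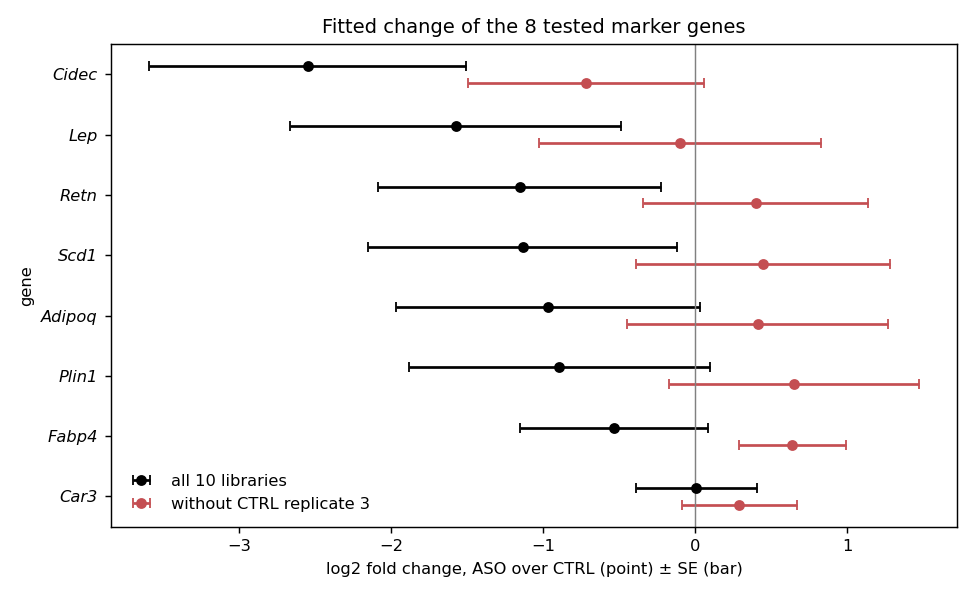
Log2 fold change of ASO over CTRL (points) with its standard error (bars) from edgeR, for the 8 tested marker genes with all 10 libraries and without CTRL replicate 3. With all libraries 7 of 8 points lie below 0; without CTRL replicate 3 only Lep (-0.10) and Cidec (-0.72) do.

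Plin1, Lep, Retn, Scd1 and Cidec went up and down with Adipoq over the 10 libraries. Pearson's r of log2(CPM + 1) with Adipoq was 0.998 for Plin1, 0.983 for Lep, 0.970 for Retn, 0.958 for Scd1 and 0.926 for Cidec, and Spearman's rho was 0.976, 0.915, 0.976, 0.915 and 0.855. Two-sided permutation p-values of r (100000 resamples, adjusted over 10 relations) were 5e-05 for Plin1 and Retn, resting on 1e-05, the smallest that this number of resamples can give, and 0.00025, 0.0002 and 0.00062 for Lep, Scd1 and Cidec. Without CTRL replicate 1 and ASO replicate 5, the libraries farthest from the median of Adipoq, r was 0.994, 0.918, 0.983, 0.928 and 0.863 for Plin1, Lep, Retn, Scd1 and Cidec. Fabp4 had r = 0.797 and rho = 0.770 (permutation p 0.015 and 0.020 after adjustment, n = 10), and without those libraries r was 0.933. Car3 had r = 0.310 and rho = 0.552 (adjusted permutation p 0.43 and 0.12), and 0.514 without them. Without CTRL replicate 3 as well, a choice made after seeing the data, the 7 remaining libraries gave r = 0.975 for Plin1, 0.936 for Retn, 0.767 for Scd1, 0.733 for Fabp4, 0.680 for Lep, 0.382 for Cidec and 0.314 for Car3 (exact permutation p 0.0016, 0.0044, 0.045, 0.057, 0.099, 0.38 and 0.50). These p-values were not adjusted over the relations, unlike those of the 10 libraries. Even so, the relations of Lep, Fabp4, Cidec and Car3 did not pass 0.05 in these 7 libraries, and Scd1 lay just under it. With each group centred on its own mean, r changed by at most 0.054 for these 7 genes.

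Other cells that express Fabp4 and Car3 were set beside them. Fabp4 against Cdh5, the cadherin of endothelial junctions, gave r = -0.03 (adjusted permutation p 0.93, n = 10). Car3 against Tnni1, the slow fiber troponin I, gave r = 0.56 (adjusted permutation p 0.12), but Tnni1 had 5.8 counts a library on average. Car3 against Myl2, the slow fiber myosin light chain, a relation added after seeing those counts, gave r = 0.55 (adjusted permutation p 0.12). None of the relations of Car3 passed a threshold of 0.05 at 10 libraries.

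**Figure D4:**
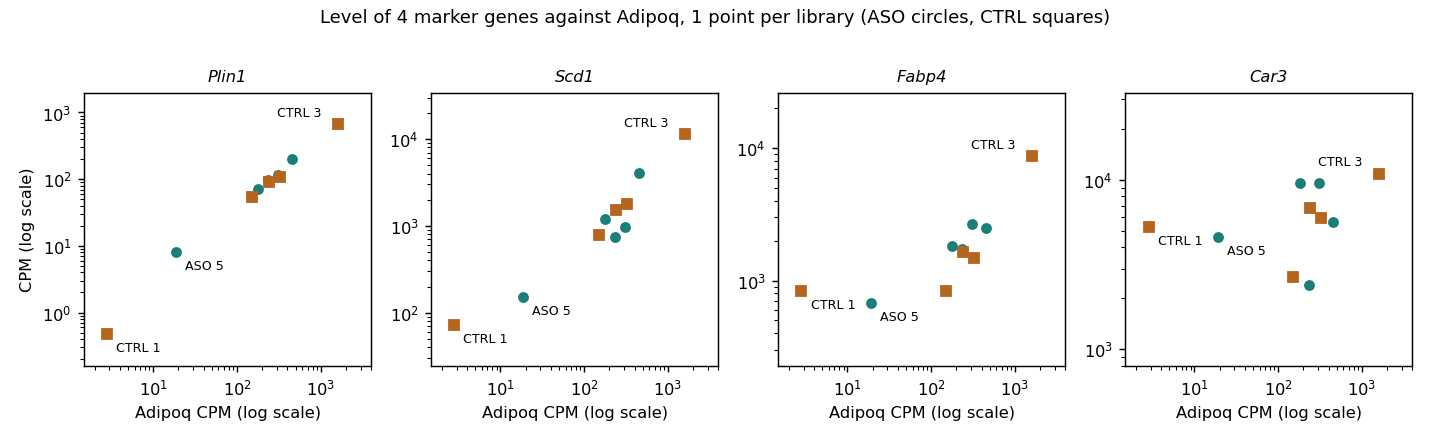
Level (CPM, log scale) of Plin1, Scd1, Fabp4 and Car3 against the level of Adipoq (CPM, log scale), 1 point per library, ASO as circles and CTRL as squares. Plin1 and Scd1 follow Adipoq from CTRL replicate 1 to CTRL replicate 3, while Fabp4 stays at 676 CPM or above and Car3 at 2392 CPM or above in the libraries with little Adipoq.

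Next, each gene was set against Adipoq in the same library, as its counts per Adipoq count, and 7 such ratios were compared between the groups. This comparison was not planned and was added after seeing the data. It was run for these 7 ratios only, so the share of all genes whose ratio to Adipoq separates the groups is not known. In CPM, 21.4% of all tested genes had groups without overlap. Cidec had 0.0942, 0.0674, 0.0549, 0.0581 and 0.0750 counts per Adipoq count in ASO replicates 1 to 5 and 0.167, 0.114, 0.243, 0.152 and 0.256 in CTRL. Every ASO library lay below every CTRL library, with a mean difference of -1.42 in log2 (two-sided exact permutation p 0.0079, the smallest that 5 against 5 can give; 0.056 after Benjamini-Hochberg adjustment over 7 ratios). Without CTRL replicate 1 and ASO replicate 5, whose Adipoq counts were few, the difference was again -1.42 (exact permutation p 0.029, the smallest for 4 against 4). Fitted across all genes with the Adipoq level as a covariate, a choice made after seeing the data, Cidec had a log2 fold change of -1.38 (SE 0.26, edgeR adjusted p 0.0022) and was the only called gene among the 7 markers that this fit can test, where it called 31.7% of 7812 genes.

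This Cidec result was carried by the 5-bp segment. On it the ratio ran from 0.0508 to 0.0857 in ASO and from 0.106 to 0.241 in CTRL, again without overlap. On the 500-bp segment, with 0 to 8 counts in ASO libraries and 0 to 49 in CTRL libraries, it ran from 0 to 0.0086 in ASO and from 0 to 0.0150 in CTRL, with overlap. The pair of 500-bp segments share 498 bp, and a read that falls on both is not counted, so the level of the distal end was not tested.

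Leptin also lay lower per Adipoq count, at 0.964, 0.426, 0.485, 0.953 and 0.525 in ASO against 0.667, 1.05, 1.13, 1.07 and 0.951 in CTRL. The groups overlapped, and the mean log2 difference was -0.61 (exact permutation p 0.071). Plin1 lay higher, between 0.380 and 0.444 in ASO and between 0.167 and 0.411 in CTRL, with a mean log2 difference of 0.30 (exact permutation p 0.040), which was 0.14 (exact p 0.14) without CTRL replicate 1 and ASO replicate 5. Retn, Fabp4, Car3 and Scd1 had exact permutation p between 0.33 and 0.98. The ratio of Fabp4 to Adipoq ran from 4.61 to 296 and that of Car3 from 6.75 to 1871, both highest in CTRL replicate 1. After adjustment over the 7 ratios, none was below 0.05.

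**Figure D5:**
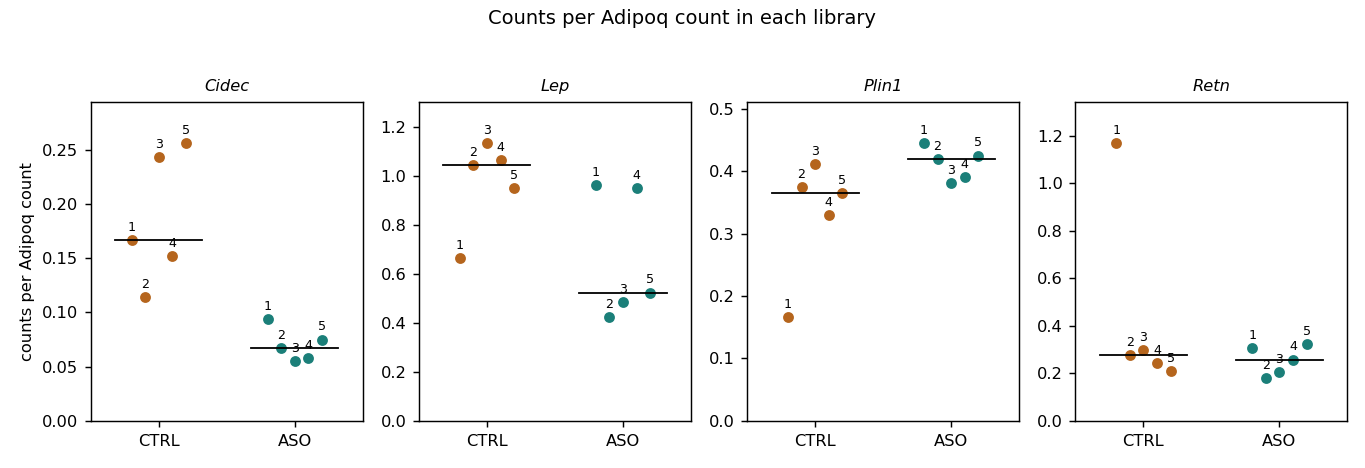
Counts of Cidec, Lep, Plin1 and Retn per Adipoq count, 1 point per library with its replicate number, and the group median as a line. For Cidec the ASO libraries end at 0.0942 and the CTRL libraries begin at 0.114; for the other 3 genes the groups overlap.

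Because the markers moved together, their promoters were read for motifs of adipocyte factors. RefSeq promoters (250 bases before to 50 after a start, GRCm38.p6) were matched for 7 of 10 genes. Marker numbers below are by gene and the percentages by promoter. A gene can have more than a single promoter, as Cidec did, so the units differ. The core TTGCNNAA, which C/EBP factors such as Cebpa bind, occurred on either strand in 3 of these 7, Lep, Cidec and Plin1, and in 10.8% of 32851 promoters. The TATA box TATAAA occurred in 1 of 7 (Cebpa) and in 13.6% of all promoters, and the PPAR element DR1 in 0 of 7 and 0.381%. The C/EBP cores are shown in capitals with 10 bases on each side, at their position from the start.
Lep, position -55: ggccggacagTTGCGCAAgtggcactgg
Cidec, position -198: gagggctctaTTGCTCAAgggcccatgg
Plin1, position -187: cacctctttaTTGCCTAAacatccccca
Plin1, position -58: ctgagaggcaTTGCCCAAgattccctgg
The Lep core reads the same on both strands, and Plin1 held 2 cores. These matches describe letters only, and no binding was measured.

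The genes outside the list whose levels were most like Adipoq over the 10 libraries, among 7864 with at least 10 counts on average, were Tmem45b (r = 0.987), Slc7a10 (0.979), Nnat (0.972), Hp (0.970), Mrap (0.968), Slc36a2 (0.968), Cdsn (0.961), Cfb (0.960), Pck1 (0.957) and Adora1 (0.957). Hp encodes haptoglobin, Pck1 the cytosolic PEP carboxykinase of glyceroneogenesis, Mrap an accessory protein of the ACTH receptor and Cfb complement factor B. All 10 were highest in CTRL replicate 3, and 9 were lowest in CTRL replicate 1, with Adora1 lowest in ASO replicate 5. By the same ranking Plin1 came first, Lep 3, Retn 7, Scd1 12, Cidec 37, Fabp4 153 and Car3 1458. None of the 10 passed the edgeR test between groups, with adjusted p from 0.22 to 0.97.

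Family counterparts of the markers, most of which other tissues use, were set beside them. Of 23 such genes 12 were tested, 0 passed upward and 1 downward (29.2% of all tested genes passed in either direction), with a median log2 fold change of -0.15, or from -0.31 to -0.06 under the other scalings and 0.24 without CTRL replicate 3. With RLE scaling 1 passed upward (Cdh13) and with upper quartile scaling 2 did (Cdh13 and Cebpb). Cdh13 binds adiponectin and is not of a marker's family, and it stands on this list and on that of the receptors. Cebpg, a C/EBP factor without an activation domain, was the gene that fell, from 39.02 ± 5.71 CPM in CTRL to 19.1 ± 3.79 CPM in ASO (log2 fold change -1.03, SE 0.17, edgeR adjusted p 0.0013), and its r with Adipoq was 0.10. Of its counts 69.6% came from a segment of 69 bp that ends 3893 bp before its most distal one does. On the most distal segment alone 0 of 11 tested genes of this list passed. Fabp3, the fatty acid binding protein of muscle, was lowest in CTRL replicate 3 (1202 CPM) and highest in CTRL replicate 1 (6031 CPM), opposite to Adipoq (r = -0.81), and its segment overlaps one of Zcchc17. Plin2, the perilipin of most cells, was highest in CTRL replicate 3 at 452 CPM and had r = 0.80. Plin4 and Plin5 were listed at 0 in every library.

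Of the receptors for adipokines 3 of 6 were tested. Adipor2, a receptor of adiponectin, lay at 536 ± 102 CPM in ASO and 815 ± 253 CPM in CTRL (log2 fold change -0.60, SE 0.21, edgeR adjusted p 0.046), was highest in CTRL replicate 3, and did not pass without that library (adjusted p 0.097 in edgeR) or with RLE or upper quartile scaling. On the most distal segment alone Adipor2 lay at -0.10 (edgeR adjusted p 0.78). Cdh13, which binds adiponectin on the surface of vessel and muscle cells, had a log2 fold change of 0.56 (edgeR adjusted p 0.061) and passed upward with RLE (adjusted p 0.0496) and upper quartile scaling (adjusted p 0.036), and Appl1, an adaptor of the receptors, one of 0.20 (edgeR adjusted p 0.38). The leptin receptor Lepr had 5.6 counts a library and Adipor1 0.5, and neither was tested. The 500-bp segments of Adipor1 end 3 bp apart, and a read that falls on both is not counted, so its low count is no measurement.

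The wider adipocyte list held 13 tested genes of 19, such as Adrb3, the fat cell's adrenergic receptor, Trarg1, Sncg and Aoc3. All 13 were highest in CTRL replicate 3, as were 16.4% of all tested genes, and 11 were lowest in CTRL replicate 1 or ASO replicate 5. None of the 13 passed upward and 1 downward (29.2% of all tested genes passed in either direction), with a median log2 fold change of -0.48 that became 0.73 without CTRL replicate 3. The gene that fell was Cav1, the coat protein of caveolae, which endothelium also holds, at 275 ± 113 CPM in ASO and 1121 ± 1041 CPM in CTRL (log2 fold change -2.03, SE 0.49, edgeR adjusted p 0.0091), and -1.27 (edgeR adjusted p 0.0081) without CTRL replicate 3. Its r with Adipoq was 0.41, and its most distal segment held 0.128% of its counts. On the most distal segment alone 0 of 9 tested genes of this list passed.

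In lipid storage and lipolysis 14 of 18 genes were tested, and 0 passed upward and 3 downward, where 29.2% of all tested genes passed in either direction. Their median log2 fold change was -0.81 (-0.14 without CTRL replicate 3). Lpin1, which makes diacylglycerol, lay at 114 ± 38.8 CPM in ASO and 323 ± 27.3 CPM in CTRL (log2 fold change -1.504, SE 0.21, edgeR adjusted p 0.00047). Gpam, the mitochondrial enzyme of the first step of glycerolipid synthesis, lay at 531 ± 101 and 1027 ± 250 CPM (log2 fold change -0.95, SE 0.19, edgeR adjusted p 0.0035). Neither gene followed the fat markers, with r to Adipoq of 0.10 and -0.12, and both passed without CTRL replicate 3. The most distal segment held 1.72% of the counts of Lpin1 and 0.295% of those of Gpam, so both calls rest on segments upstream of it. On the most distal segment alone 0 of 7 tested genes of this list passed. Abhd5, the coactivator of the lipase Pnpla2, passed with all libraries (log2 fold change -0.72, edgeR adjusted p 0.041) and not without CTRL replicate 3 (edgeR adjusted p 0.092) or with upper quartile scaling (0.061).

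Fatty acid synthesis had 6 tested genes of 10, all highest in CTRL replicate 3, of which 1 passed, downward: Acss2, the cytosolic acetyl-CoA synthetase (log2 fold change -0.71, SE 0.23, edgeR adjusted p 0.034; 0.074 without CTRL replicate 3 and 0.055 with upper quartile scaling). Fasn, fatty acid synthase, followed Adipoq with r = 0.90 and ran from 10.8 to 1073 CPM. On the most distal segment alone 0 of 4 tested genes of synthesis passed. Among 8 genes of fatty acid and glucose uptake 2 passed upward and 1 downward. Beside the lists of this paragraph, 29.2% of all tested genes passed in either direction. Slc2a4, the insulin-responsive glucose transporter, rose from 1524 ± 209 to 2167 ± 268 CPM (log2 fold change 0.51, SE 0.15, edgeR adjusted p 0.022) and Gpihbp1, which anchors lipoprotein lipase to capillaries, from 23.6 ± 3.76 to 36.8 ± 9.07 CPM (0.64, SE 0.20, edgeR adjusted p 0.029). With total counts in place of TMM neither passed. On the most distal segment alone Slc2a4 lay at 0.22 (edgeR adjusted p 0.27) and Gpihbp1 at 0.43 (edgeR adjusted p 0.43). Cd36, a fatty acid translocase, fell from 525 ± 203 to 286 ± 88.1 CPM (log2 fold change -0.88, SE 0.27, edgeR adjusted p 0.029). It did not pass without CTRL replicate 3 (edgeR adjusted p 0.063) or on the most distal segment alone (0.21). Of 10 adipogenic transcription factors 6 were tested, and 1, Ebf2, passed, downward (log2 fold change -1.11, SE 0.33, edgeR adjusted p 0.023). Ebf2 did not pass without CTRL replicate 3 (edgeR adjusted p 0.057) or on the most distal segment alone (0.27). The median of the 6, 0.14, turned to -0.04 with total counts alone. Pparg and Srebf1 were listed at 0.

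Markers of other cells were set beside the fat genes, library by library, and their part in the results above was not tested. All 8 tested macrophage genes were highest in CTRL replicate 3 and lowest in ASO replicate 5: their summed level was 1886 CPM in CTRL replicate 3, between 299 and 705 in the other CTRL libraries, between 368 and 634 in ASO replicates 1 to 4 and 81.1 in ASO replicate 5. Of these 8 genes 0 passed upward and 2 downward, Mrc1 and C1qc (log2 fold changes -1.51 and -1.61, edgeR adjusted p 0.036 and 0.046), and neither passed without CTRL replicate 3, nor C1qc with upper quartile scaling. Beside these and the following lists, 29.2% of all tested genes passed in either direction. The summed skeletal muscle genes ran the other way, from 44601 CPM in CTRL replicate 3 to 128609 CPM in ASO replicate 5, with 2 of 5 tested genes passing upward (Ttn and Ckm) and none downward, or 3 with RLE or upper quartile scaling (Acta1 too). On the most distal segment alone 0 of 3 tested skeletal muscle genes passed in edgeR, and their median log2 fold change was -0.07 in place of 0.57. For Ckm, 97.6% of counts came from a segment that ends 1257 bp before the most distal segment does, and for Ttn every count came from one 209964 bp before it. Of 10 fast fiber genes 4 were tested, and all 4 passed upward, Actn3 with a log2 fold change of 1.79 (edgeR adjusted p 0.0015). On the most distal segment alone 3 of 4 passed. In CPM the groups overlapped for Tnnc2, Actn3 and Mybpc2 and did not for Atp2a1. None of these 4 had an r above 0 with Adipoq. Of 6 slow fiber genes 1 passed, Myl6b (log2 fold change 1.72, edgeR adjusted p 0.037). It did not pass without CTRL replicate 3 (edgeR adjusted p 0.065), with total counts alone (0.065) or on the most distal segment alone (0.12). The summed slow level ran from 53.5 to 6113 CPM, highest in ASO replicate 4 and, within CTRL, in replicate 1 (2023 CPM).

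Precursors of fat cells, the fibro-adipogenic progenitors, had 5 tested genes of 12, of which 1 passed upward (Cd55) and 3 downward. Over all tested genes 29.2% passed in either direction. Cd55 did not pass without CTRL replicate 3, with total counts alone or on the most distal segment alone. On that segment 3 genes of the list were tested, and 1 passed, downward. Cd34, a progenitor and endothelial surface antigen, fell from 40.6 ± 17.5 to 5.73 ± 2.52 CPM (log2 fold change -2.80, SE 0.38, edgeR adjusted p 0.00042), Lum, a matrix proteoglycan, from 160 ± 30.8 to 48.6 ± 22.8 CPM (-1.72, SE 0.29, edgeR adjusted p 0.0014) and Smoc2, a matrix protein, from 26.7 ± 6.29 to 8.86 ± 3.18 CPM (-1.59, SE 0.27, edgeR adjusted p 0.0014). Their r with Adipoq lay between -0.21 and 0.23, and all 3 passed without CTRL replicate 3. Every count of Cd34 came from a segment that ends 2729 bp before its most distal segments do. Those share their coordinates and held 0 counts, so the distal end of Cd34 was not tested. The defining genes Pdgfra and Dcn could not be tested, with 2.9 and 0 counts a library. The segments of Dcn have the same coordinates, where a read is not counted, so its 0 is no measurement. None of 8 endothelial, 4 blood, 3 Schwann cell, 1 brown adipocyte (Cidea) and 1 skin (Krt10) genes passed in either direction. The brown fat gene Ucp1 had 0.5 counts a library, and the skin keratins Krt5 and Krt14 were listed at 0.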

How the data were processed

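Poly(A) RNA of 10 gastrocnemius libraries (5 ASO, 5 CTRL) was sequenced with a stranded kit. Per the labels and the study's methods, fastp trimmed the reads, STAR mapped them to GRCm39, and featureCounts counted read pairs on at most the final 500 bp of each 3′UTR. The authors deposited these raw counts; the strand setting is not given in the sources used here. The 4 columns of other samples were not used. Of 52423 segments 52361 matched GENCODE M39 (the rest hold 0.0197% of counts) and were summed per gene. Genes passing filterByExpr were tested with edgeR 4.0.16 (TMM, quasi-likelihood, Benjamini-Hochberg, threshold 0.05) in R 4.3.3; alternatives were DESeq2 1.42.0, the study's own tool, and limma-voom (limma 3.58.1). Log levels are log2(CPM + 1). Ratios per Adipoq count were compared as log2 with 0.5 added to each count. On simulated data edgeR recovered 173 of 188 changed genes with 1 false call, counted over all genes tested there. Recovery for genes that spread between libraries as the markers did was not tested. The marker genes, gene lists and rules were chosen with earlier results of these data known. All 10 markers are named; other lists give up to 4 called genes, family counterparts and receptors any tested gene, with the 10 genes most like Adipoq; any further gene was named after its values were seen.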

Additional observations from a re-analysis of the deposited data

Results flagged for a closer look

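In groups of 5 libraries, a value was singled out where its gap to the nearest other library, as a part of the group's range, exceeded Dixon's 95% critical value. In all 32 groups were checked and 15 stood out. Chance alone gives about 1 in 20 only for independent, normally distributed values. The values were not put on a log scale, and the ratios share their Adipoq counts, so the count cannot be set against that rate. In CTRL, replicate 3 stood far above the other CTRL libraries for Adipoq (1612 CPM), Plin1 (663), Retn (478), Lep (1829), Fabp4 (8770.0), Cidec (391) and Scd1 (11436), and for the share of counts on the 10 marker genes (4.10%). These 8 values come from a single library and are not independent of each other. In ASO, replicate 1 stood above the rest for Scd1 (4055 CPM).

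Per Adipoq count, CTRL replicate 1 stood above the other CTRL libraries for Retn (1.17), Fabp4 (296), Car3 (1871) and Scd1 (25.7), and ASO replicate 5 above the other ASO libraries for Fabp4 (35.9) and Car3 (244). These ratios divide by 6 and 40 Adipoq counts.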

How the results depend on the processing

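Across all genes 2283 passed; the count fell to 567 with the most distal segment alone and 1417 without CTRL replicates 1 and 3 and ASO replicate 5. Of the listed genes outside the markers 24 passed, beside 29.2% of all tested genes in either direction. The number was 5 on the most distal segment alone, 17 without CTRL replicate 3 and 20 to 25 under the other scalings. How many genes of each list were tested is given above. Calls upward were 40.3% of all calls, 22.5% with total counts alone and 51.1% with upper quartile scaling; total counts alone moved the median gene from -0.03 to -0.21. No marker was called lower, but 1 (Cidec) was without CTRL replicate 1 and with Adipoq as covariate. Leaving out 1 library gave 0 to 1 called lower. The mean shares, 0.962% in ASO and 1.48% in CTRL, became 0.0552% and 0.155% without Fabp4, Car3 and Scd1. Signs turned for Adipoq (0.20), Plin1 (0.53) with limma-voom; for Plin1 (0.22) with Adipoq as covariate; for Adipoq (0.30), Plin1 (0.53), Retn (0.30), Fabp4 (0.72) and Scd1 (0.35) without the 3 libraries; for Adipoq (-1.34 to 0.41), Plin1 (-1.33 to 0.65), Retn (-1.75 to 0.40), Fabp4 (-0.77 to 0.64) and Scd1 (-2.04 to 0.45) as single libraries were left out. Car3 moved to -0.18 with total counts, -0.0233 with at least 10 counts in every library, -0.0218 with limma-voom, -0.31 on the distal segment and -0.0063 with the replicate block, and from -0.19 to 0.29 leaving out single libraries. Per Adipoq count, Fabp4 (0.48) and Car3 (0.44) turned without CTRL replicate 1 and ASO replicate 5. The cause of these shifts was not tested beyond which libraries they rest on. The replicate block gave 662 genes higher and 1172 lower and called no marker. Same-numbered libraries of the groups correlated between -0.43 and 0.16, which cannot tell whether they shared a cage, a day or a batch. Cfd, with 3 counts, and Cebpa, with duplicate segments, could not be tested.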
